A study of Mus musculus with 6 samples.

Results

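Of the 32285 genes in the deposited count matrices, 9 encode the adrenergic and histamine receptors described here: Adra1a, Adra1b, Adra1d, Adra2a, Adra2c, Adrb1, Hrh1, Hrh2 and Hrh3. They were taken by symbol, with no threshold on their level. Adrenergic receptors bind noradrenaline and adrenaline, and histamine receptors bind histamine. In the brain both amines are released by small nuclei of the brainstem and hypothalamus whose axons reach most of the forebrain, the septum included, where they act on neurons and on glia during arousal. The receptors divide by the G protein they engage: Adra1a, Adra1b, Adra1d and Hrh1 act mainly through Gq and phospholipase C, Adra2a, Adra2c and Hrh3 through Gi and Go, which lower cyclic AMP, and Adrb1 and Hrh2 through Gs, which raises it.

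The study sequenced RNA from single nuclei of the septal area of wild type mice in 6 libraries, made with a droplet 3′ kit, version 3. All 6 form 1 group: the labels name no treatment, strain, sex or age, and do not say how many animals a library holds or whether libraries come from different animals. P-values below therefore rest on the spread among 6 libraries, which could be technical alone. Comparisons are between cell classes within the same samples.

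Nuclei were put in a class by marker transcripts, none of which is a receptor gene described here. Of 55537 barcodes, 54623 had at least 500 genes (7155 to 11007 per sample), with a median of 5175 to 6863 unique molecular identifiers (UMIs, 1 per captured transcript) per sample, and 44079 fell in a single class. Another 5030 carried markers of more than 1 class and were left out. The classes held 22274 neurons, 8240 astrocytes, 6946 oligodendrocytes, 2342 ependymal cells, 2270 oligodendrocyte precursors, 914 microglia, 729 endothelial cells and 314 pericytes or smooth muscle cells. Among the neurons, 14984 were GABAergic, 872 glutamatergic and 87 cholinergic, the last 13 to 18 per sample. The GABAergic neurons included 9995 lateral septum-like, 855 striatal medium spiny-like and 167 medial septum-like nuclei, the last 21 to 43 per sample. In every class its own marker list was fully detected. Any 2 libraries shared 12 to 43 barcodes, at most 0.433% of the smaller one. Levels are UMIs per 1000000 UMIs of the class in a sample (CPM), given as mean ± SD over the 6 samples. UMIs of the 6 neuron markers were also found in glia: their summed level was 19572 to 21065 CPM in neurons, 1802 to 2516 in astrocytes, 1825 to 2600 in oligodendrocytes, 1845 to 2400 in precursors, 2433 to 3567 in microglia, 3099 to 4221 in endothelial cells and 2321 to 3145 in ependymal cells. Their part in the receptor levels of glia was not tested.

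The 9 genes gave very different numbers of UMIs: 25743 for Adra1a, 8085 for Hrh1, 4293 for Adrb1, 3719 for Hrh2, 2061 for Hrh3, 1905 for Adra1b, 902 for Adra2a, 169 for Adra2c and 51 for Adra1d. The genes with the most UMIs were not comparable per length, because the gene models differ widely: in GENCODE M21 (GRCm38) Adra1a spans 135.918 kb of chromosome 14, Adra1b 126.605 kb of chromosome 11, Hrh1 85.361 kb of chromosome 6 and Hrh2 44.052 kb of chromosome 13. Adra1d spans 16.434 kb of chromosome 2 and Adrb1 10.915 kb of chromosome 19. Hrh3 on chromosome 2, Adra2a on chromosome 19 and Adra2c on chromosome 5 span 5.024, 4.832 and 3.445 kb, and Adra2c has a single exon. Nuclear RNA is rich in introns, and the sources used here do not give the treatment of intronic reads, so each gene was compared between classes and never with another gene. The models of Adra1d, Hrh2 and Hrh3 each overlap 1 gene on the opposite strand.

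**Figure D1:**
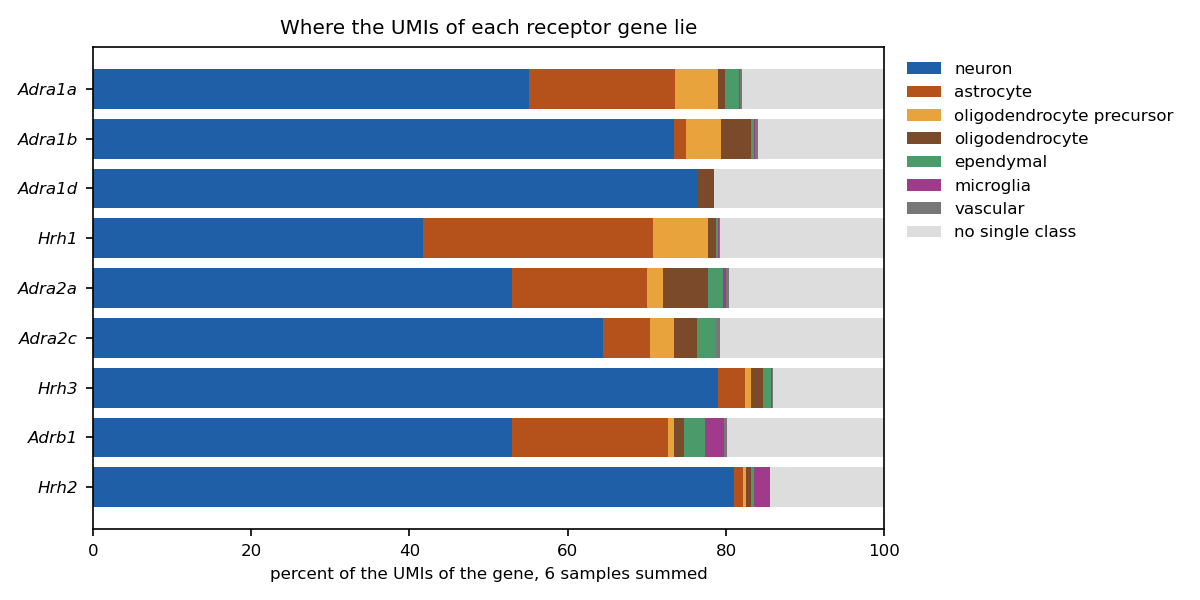
Percent of each gene's UMIs (x axis, 6 samples summed, barcodes with at least 500 genes) that lay in each class of nuclei, with the vascular classes added together and nuclei in no single class in light grey. Neurons held 81.0% of the UMIs of Hrh2 and 41.7% of those of Hrh1, while astrocytes held 1.16% and 29.0%.

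Adra1b and Hrh2 were both highest in medial septum-like and cholinergic neurons, so the sequence before their start sites is shown. RefSeq's promoter table (GRCm38.p6) held 7 of the 9 genes. The 250 bases before a start are printed 5′ to 3′ on the gene's strand, with matches to 5 motifs in capitals: the TATA box TATAAA, the GC box GGGCGG, the cyclic AMP response element TGACGTCA, the E box CACGTG and the CCAAT box, each searched on both strands. Adra1b has 2 listed starts far apart, with windows at chr11:43901238-43901487 and chr11:43836490-43836739 (both minus strand), and of 2 Hrh2 windows that nearly coincide the one shown is chr13:54191879-54192128 (plus strand).
Adra1b, upstream start: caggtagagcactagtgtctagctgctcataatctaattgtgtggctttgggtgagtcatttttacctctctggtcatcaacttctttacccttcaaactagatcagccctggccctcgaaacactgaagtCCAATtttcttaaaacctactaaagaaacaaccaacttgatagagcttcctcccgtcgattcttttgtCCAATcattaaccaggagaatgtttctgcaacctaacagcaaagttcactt
Adra1b, downstream start: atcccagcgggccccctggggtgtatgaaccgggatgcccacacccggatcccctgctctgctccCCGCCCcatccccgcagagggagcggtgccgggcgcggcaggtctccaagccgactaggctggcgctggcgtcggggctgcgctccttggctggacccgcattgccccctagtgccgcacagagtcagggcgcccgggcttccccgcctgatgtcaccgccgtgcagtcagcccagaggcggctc
Hrh2: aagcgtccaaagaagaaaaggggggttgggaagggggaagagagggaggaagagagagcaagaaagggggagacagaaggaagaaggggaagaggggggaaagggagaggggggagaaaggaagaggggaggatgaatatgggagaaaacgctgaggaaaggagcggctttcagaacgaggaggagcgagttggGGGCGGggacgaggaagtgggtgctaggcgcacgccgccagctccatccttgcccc
The upstream Adra1b window was 41.6% G or C with 3 CpG pairs and 2 CCAAT matches. The downstream one was 72.8% G or C with 22 CpG pairs and 1 GGGCGG match, and the Hrh2 window 59.6% with 10 pairs and 1 GGGCGG match. Over all 32851 promoters of the table the medians were 52.4% and 6 pairs, and 32.7% held GGGCGG, 33.8% CCAAT, 12.4% TATAAA, 6.02% CACGTG and 1.55% TGACGTCA. A match is only a match of letters.

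**Figure D2:**
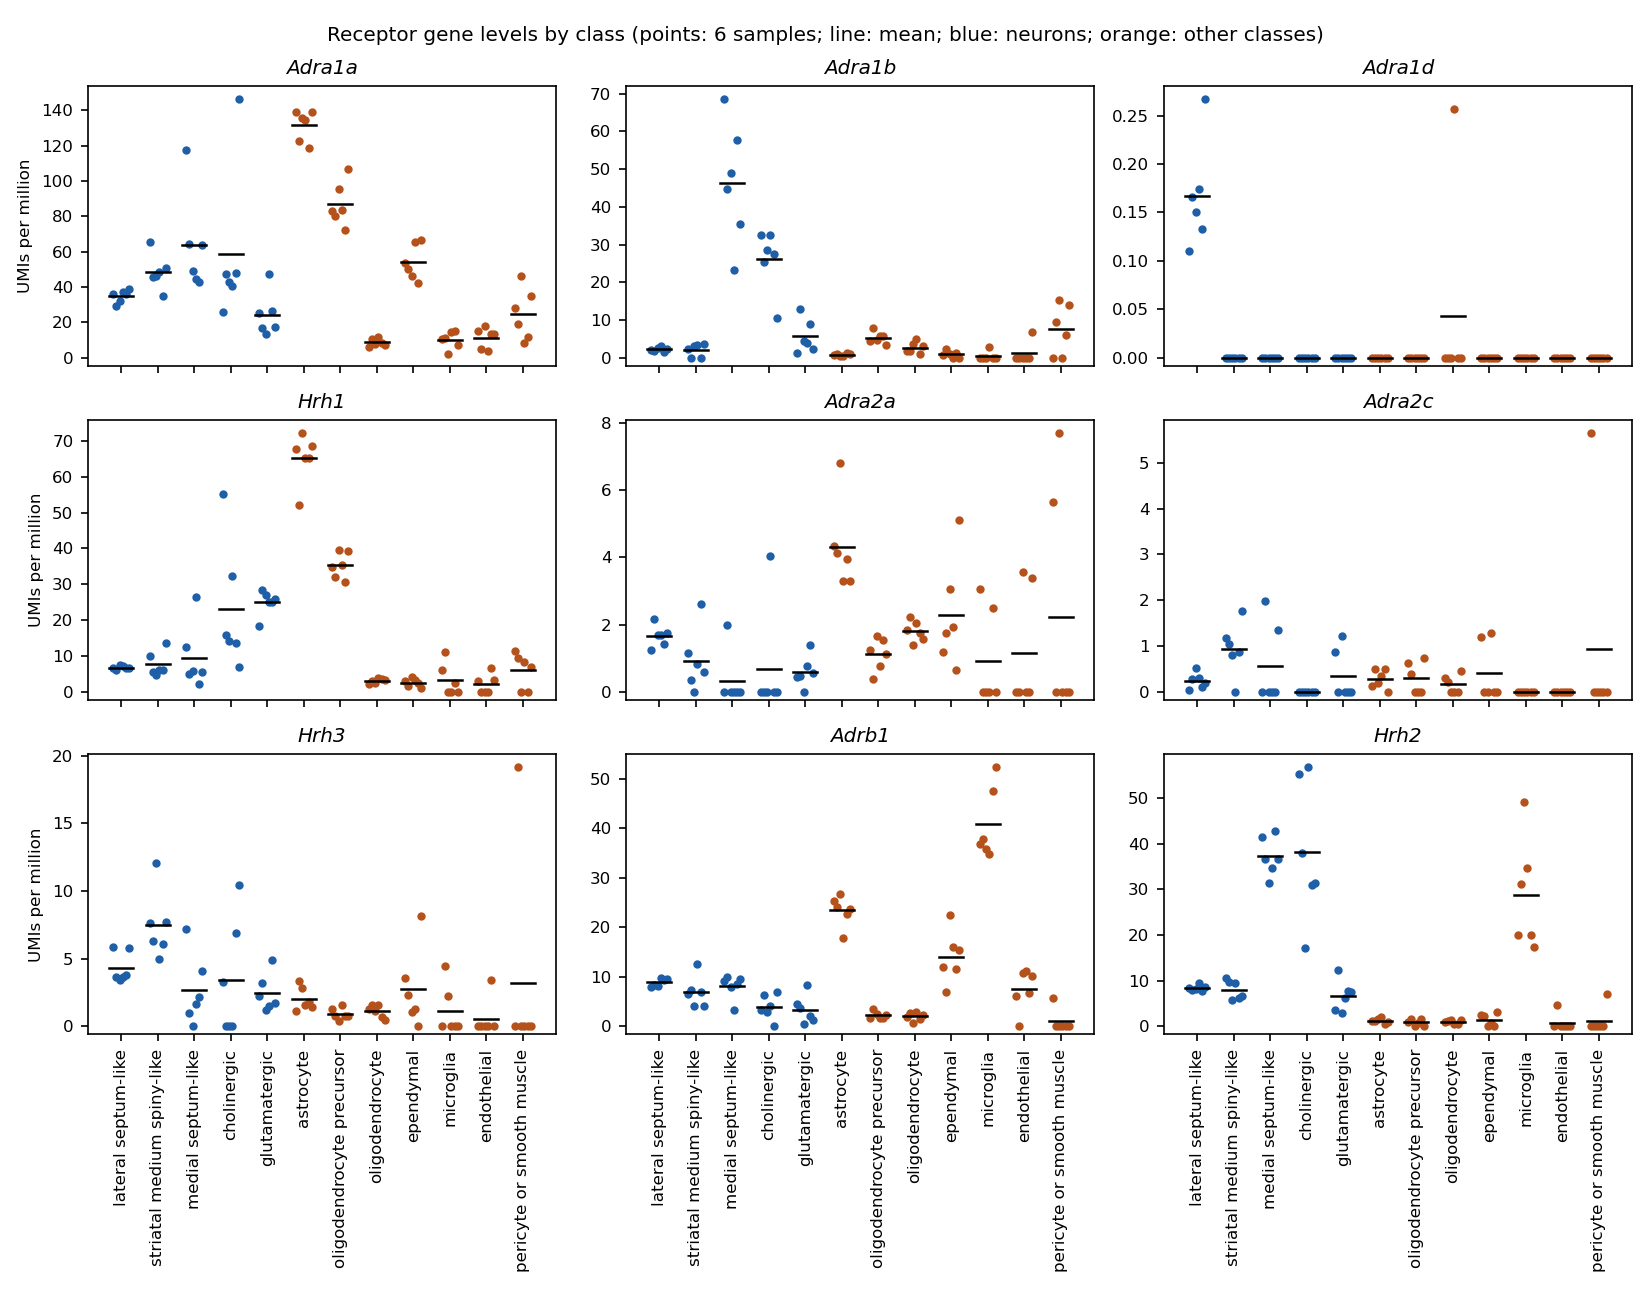
Level of each receptor gene (y axis, CPM, a separate linear scale per gene) in 12 separate classes (x axis), with 1 point per sample and a line at the mean. Adra1a and Hrh1 are highest in astrocytes, Adra1b and Hrh2 in medial septum-like or cholinergic neurons, and Adrb1 in microglia. Single points stand alone in the classes with few UMIs.

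Among the Gq-coupled receptors, Adra1a, the alpha-1A adrenergic receptor, was read in most classes. Its level in astrocytes had a lowest value of 119, a median of 135 and a highest value of 139 CPM over the 6 samples. In oligodendrocyte precursors the same 3 values were 72.4, 83.3 and 107 CPM, below every astrocyte sample. The means were 132 ± 8.83 CPM in astrocytes and 86.9 ± 12.2 CPM in precursors (SD, n = 6). Next came medial septum-like neurons at 63.7 ± 27.9, cholinergic neurons at 58.6 ± 43.8, ependymal cells at 53.9 ± 10.03, striatal medium spiny-like neurons at 48.6 ± 9.99 and lateral septum-like neurons at 34.9 ± 3.53 CPM, and the ranges of neighbours in this order overlapped. The cholinergic mean rested on sample 6, at 146 CPM, with the other 5 samples between 26.0 and 48.1 CPM. Pericytes or smooth muscle cells, from 21 UMIs, and glutamatergic neurons followed at 24.8 ± 14.4 and 24.4 ± 12.2 CPM, and endothelial cells, microglia and oligodendrocytes were lowest at 11.4 ± 5.81, 10.1 ± 4.82 and 8.66 ± 2.24 CPM. A UMI of Adra1a was found in 34.0% ± 2.54 of astrocytes and 2.92% ± 0.53 of oligodendrocytes, at median depths per sample of 3522.5 to 4519 and 2895 to 4021.5 UMIs. To compare shares at 1 depth, nuclei with at least 2000 UMIs were thinned to 2000 and shallower ones were left out: 374 of 8240 astrocytes, 501 of 6946 oligodendrocytes, 713 of 22274 neurons, 18 of 2270 precursors, 233 of 914 microglia and 2 of 872 glutamatergic neurons. All thinned shares are over the nuclei that stayed. For Adra1a they were 19.996% ± 0.60 in astrocytes, 13.7% ± 2.61 in precursors, 7.68% ± 0.58 in neurons and 1.63% ± 0.29 in oligodendrocytes (SD, n = 6).

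Hrh1, the H1 histamine receptor, followed the same order at its top. Its lowest, median and highest levels were 52.0, 66.5 and 72.2 CPM in astrocytes, and 30.8, 35.1 and 39.5 CPM in oligodendrocyte precursors. Glutamatergic neurons had 18.5, 25.6 and 28.5 CPM. These 3 classes did not overlap: each astrocyte sample was above each precursor sample, and each of those above each glutamatergic sample. Cholinergic neurons were at 23.1 ± 17.9 CPM and ran from 6.97 to 55.3 CPM. Lateral septum-like neurons were at 6.798 ± 0.484 CPM, striatal medium spiny-like neurons at 7.72 ± 3.39 CPM and oligodendrocytes at 3.11 ± 0.584 CPM (SD, n = 6). After thinning, a UMI of Hrh1 was found in 11.2% ± 1.10 of astrocytes, 7.15% ± 1.30 of precursors, 4.82% ± 1.80 of glutamatergic neurons and 0.62% ± 0.13 of oligodendrocytes.

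Adra1b, the alpha-1B adrenergic receptor, had a different place. In medial septum-like neurons its lowest, median and highest levels were 23.2, 46.8 and 68.6 CPM, and in cholinergic neurons 10.5, 28.0 and 32.5 CPM. These 2 classes overlapped each other. Lateral septum-like neurons had 1.53, 2.23 and 3.20 CPM, all below both. Oligodendrocyte precursors were at 5.32 ± 1.55 CPM and glutamatergic neurons at 5.64 ± 4.43 CPM, while astrocytes, high for Adra1a, were at 0.821 ± 0.309 CPM (SD, n = 6). A UMI of Adra1b was seen in 50.7% ± 8.62 of medial septum-like nuclei, whose median depth per sample was 19269.5 to 21922 UMIs, and in 2.68% ± 0.67 of lateral septum-like nuclei at 13294 to 16528 UMIs. After thinning the shares were 5.69% ± 5.29 and 0.31% ± 0.10, the first from only 9 UMIs. Adra1d, the third alpha-1 receptor, had 39 UMIs in all neurons, of which 29 lay in lateral septum-like nuclei at 0.167 ± 0.0542 CPM. It had no UMI in 10 of the 12 separate classes and 1 in oligodendrocytes. A count of 0 allowed up to 0.0832 CPM in astrocytes and up to 0.773 CPM in medial septum-like neurons, from 3 counts over the class total and for counting error only.

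Of the Gi-coupled receptors, Adra2a and Adra2c, the alpha-2A and alpha-2C adrenergic receptors, were read at low levels. Adra2a was highest in astrocytes, where its lowest, median and highest levels were 3.28, 4.05 and 6.82 CPM, against 1.25, 1.70 and 2.16 CPM in lateral septum-like neurons. No sample of the astrocytes fell within the range of the lateral septum-like neurons. In glutamatergic neurons it had 6 UMIs and in medial septum-like neurons 2. Adra2c had a mean of at most 0.945 CPM in any class, reached in striatal medium spiny-like neurons from 10 UMIs. Hrh3, the H3 receptor, a presynaptic autoreceptor and heteroreceptor, had 79.0% of its UMIs in neurons. Its levels were 4.99, 6.95 and 12.1 CPM in striatal medium spiny-like neurons and 3.39, 3.69 and 5.85 CPM in lateral septum-like neurons. The first was higher in all 6 samples, although the ranges overlapped. Astrocytes were at 2.005 ± 0.87 and oligodendrocytes at 1.10 ± 0.457 CPM (SD, n = 6).

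The Gs-coupled receptors were read in microglia as well as in neurons or astrocytes. Adrb1, the beta-1 adrenergic receptor, had a lowest level of 34.7, a median of 37.3 and a highest of 52.3 CPM in microglia, from 103 UMIs in all. In astrocytes the values were 17.8, 23.9 and 26.7 CPM, so the 2 classes did not overlap. Ependymal cells followed at 14.1 ± 5.22, lateral septum-like neurons at 8.85 ± 0.822 and medial septum-like neurons at 8.03 ± 2.43 CPM, and glutamatergic neurons were at 3.35 ± 2.88 CPM. Oligodendrocytes and their precursors had 55 and 34 UMIs in all. After thinning, a UMI of Adrb1 was found in 7.08% ± 1.79 of the 681 microglia deep enough to be thinned, 4.61% ± 0.37 of astrocytes and 0.40% ± 0.14 of oligodendrocytes.

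Hrh2, the H2 histamine receptor, was highest in 3 small classes. Its lowest, median and highest levels were 17.1, 34.7 and 56.8 CPM in cholinergic neurons, 31.3, 36.7 and 42.8 CPM in medial septum-like neurons and 17.4, 25.5 and 49.2 CPM in microglia. These 3 overlapped one another. Each of their samples was above all 6 lateral septum-like samples, which ran from 7.75 to 9.55 CPM. Astrocytes were at 1.205 ± 0.544 CPM, oligodendrocytes at 0.953 ± 0.406 CPM and precursors at 0.808 ± 0.701 CPM (SD, n = 6). The microglial level came from 74 UMIs. After thinning, 5.35% ± 1.46 of those 681 microglia and 0.25% ± 0.20 of astrocytes had a UMI of Hrh2.

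Along these orders 99 pairs of neighbouring classes were compared with an exact 2-sided sign-flip permutation test on log2(CPM + 1), whose smallest p with 6 pairs is 0.03125. No pair passed 0.05 after adjustment over the 99 (smallest adjusted p = 0.309). A pair could pass only if most of the 99 were at the smallest p. The order of the neighbours was also set by the same levels. The outcome therefore cannot show whether 2 neighbours differ. In 5 pairs the ranges of the 6 samples did not overlap: Adra1a in astrocytes over precursors, Hrh1 in astrocytes over precursors and in precursors over glutamatergic neurons, Adrb1 in microglia over astrocytes, and Hrh2 in microglia over lateral septum-like neurons. How often other genes separate in this way was not counted, so these 5 only describe the levels.

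The 9 main comparisons of classes were fitted over all genes with edgeR's quasi-likelihood test on summed counts, with the sample as a block and Benjamini-Hochberg adjustment over all genes tested. Adra1d and Adra2c were under the filter on low counts in every comparison. The share of all genes called ran from 17.7% to 81.2% over these comparisons and is given beside each count.

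Between neurons and astrocytes the receptors differed in both directions, as most genes tested did in 1 or the other. All 7 members tested passed, in a comparison in which 81.2% of genes did (41.3% higher in neurons and 39.9% in astrocytes). The level in neurons was lower for Adra1a (log2 difference −1.48 ± 0.04 SE, adjusted p = 3.6e-20), Hrh1 (−2.53 ± 0.05, 4.6e-23), Adra2a (−1.44 ± 0.16, 2e-08) and Adrb1 (−1.64 ± 0.09, 3.4e-14), each in 6 of 6 samples. It was higher for Adra1b (2.46 ± 0.21, 1.7e-10), Hrh3 (1.46 ± 0.20, 6.3e-07) and Hrh2 (3.05 ± 0.16, 2.2e-14), also in 6 of 6. The median log2 difference was −1.44 over the 7 members and 0.03 over all 18170 genes tested. Of 44 other genes of the amine and G protein pathways, 36 were tested, 18 were higher in neurons and 17 in astrocytes. All 5 breakdown enzymes tested were higher in astrocytes, led by Maob, monoamine oxidase B, at 101 ± 4.27 against 7.13 ± 0.616 CPM. All 6 RGS genes tested, whose proteins speed the shut-off of G proteins, were higher in neurons, led by Rgs8 at 12.4 ± 1.35 against 1.48 ± 0.42 CPM.

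**Figure D3:**
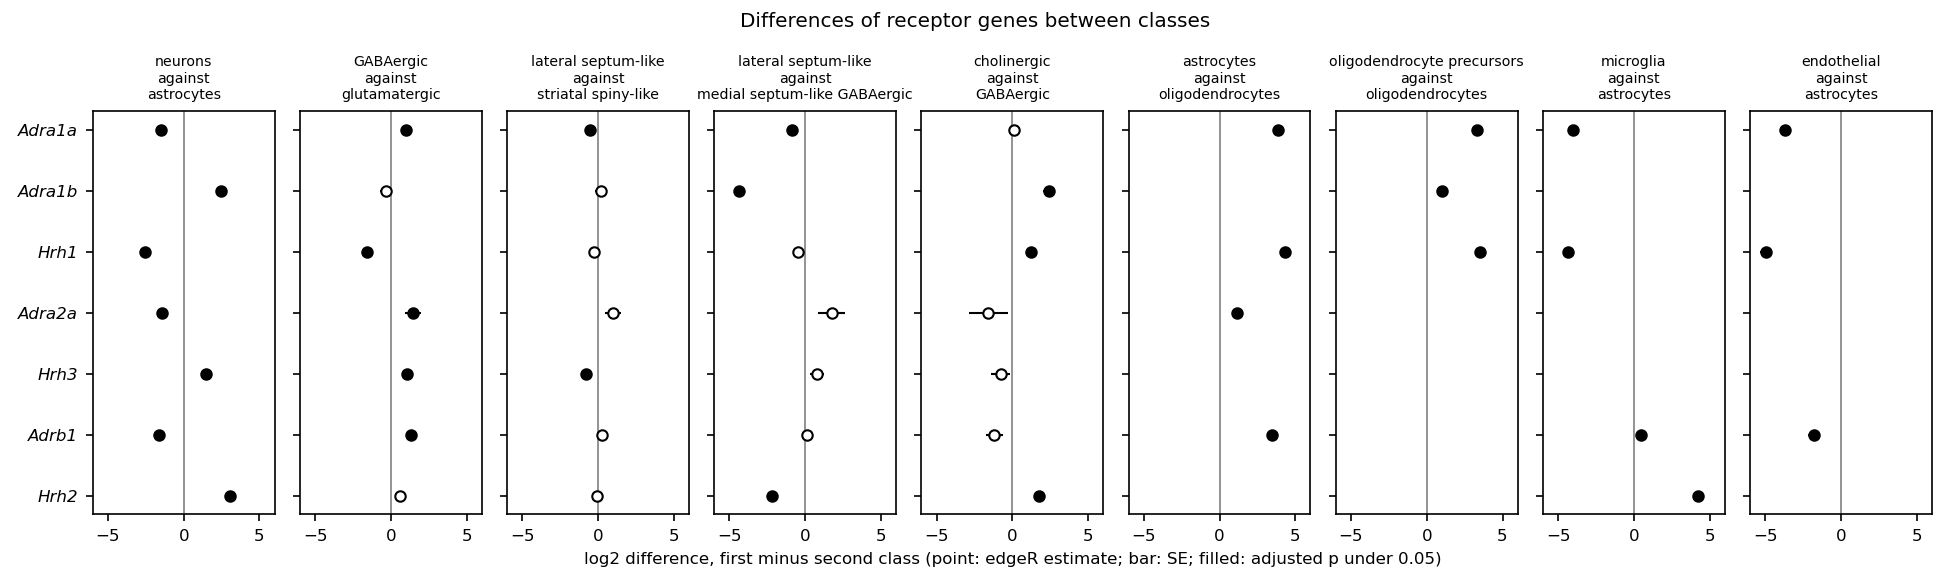
Log2 difference (x axis, first minus second class, with its standard error as a bar) of the 7 receptor genes tested in each of the 9 main comparisons. Filled points had an adjusted p under 0.05 and open points did not. A missing point is a gene under the filter on low counts. Adra1b and Hrh2 both lie below 0 in the lateral against medial septum-like comparison. Both lie above 0 in the cholinergic against GABAergic comparison.

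Between the transmitter classes of neurons, 5 of the 7 members tested passed, where 30.9% of all genes did (16.9% higher in GABAergic and 14% in glutamatergic neurons). Adra1a was higher in GABAergic neurons (1.02 ± 0.16, adjusted p = 0.00012 by edgeR, 6 of 6 samples), as were Hrh3 (1.07 ± 0.29, 0.0097, 5 of 6), Adrb1 (1.34 ± 0.32, 0.0048, 6 of 6) and Adra2a (1.48 ± 0.52, 0.045, 6 of 6). The Adra2a call was lost in 8 of 15 alternatives, among them DESeq2 (adjusted p = 0.089) and leaving out sample 1, 2, 3, 4 or 6, and those of Hrh3 and Adrb1 were lost after thinning (0.37 and 0.085). Hrh1 alone was higher in glutamatergic neurons, at 25.0 ± 3.45 against 8.67 ± 0.725 CPM (−1.55 ± 0.12, 6.8e-08, 6 of 6 samples). The glutamatergic class was not even. Its 188 nuclei with Ebf1 and Corin, read in 5 samples, had Hrh1 at 11.8 ± 8.21 CPM (SD). Its 318 nuclei with neither, read in 6 samples, had 17.5 ± 6.05 CPM. The first group needed both genes and at least 3 UMIs of them. The rest of the 872 nuclei had UMIs of these genes but fell short of this, and were in neither group. Both groups were below the class mean of 25.0 CPM for Hrh1, so they do not describe the whole class. In the same order Adrb1 was at 0.304 ± 0.680 and 5.83 ± 4.12 CPM, and Adra1b at 0.304 ± 0.680 and 11.3 ± 9.24 CPM, without a test. Hrh2 (0.58 ± 0.23, 0.07) and Adra1b (−0.34 ± 0.37, 0.55) did not pass. Of the 35 pathway genes tested 9 were higher in GABAergic and 7 in glutamatergic neurons.

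Lateral septum-like and striatal medium spiny-like neurons differed in 2 of the 7 members tested, where 38.8% of all genes passed (19.9% higher in lateral septum-like and 19% in striatal neurons). Adra1a (−0.56 ± 0.09, adjusted p = 9.2e-06 by edgeR, 5 of 6 samples) and Hrh3 (−0.80 ± 0.22, 0.0035, 6 of 6) were lower in lateral septum-like neurons. The first call was lost after thinning (adjusted p = 0.13) and the second with a stricter gate (0.25). For Adrb1, Hrh1 and Hrh2 the 95% intervals of the log2 difference were −0.15 to 0.60, −0.63 to 0.16 and −0.38 to 0.29. With the stricter gate Adrb1 was higher in lateral septum-like neurons (0.79, adjusted p = 0.026), as was Adra2a (2.17, 0.042), which at 0.99 ± 0.50 (0.13) did not pass here but did without predicted doublets (1.55, 0.048) and without sample 5 (1.46, 0.038). Of 34 pathway genes tested 13 were higher in lateral septum-like and 11 in striatal neurons. The largest striatal difference among the amine genes was in Ddc, which makes dopamine and serotonin from their precursors, at 22.6 ± 4.23 against 2.52 ± 0.562 CPM.

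Among the receptors tested, the 2 septal divisions differed most in Adra1b. It was at 46.4 ± 16.1 CPM in medial septum-like and 2.28 ± 0.60 CPM in lateral septum-like neurons (log2 difference, lateral minus medial, −4.34 ± 0.25, adjusted p = 9.8e-17 by edgeR, 6 of 6 samples). Hrh2 was lower on the lateral side as well (−2.16 ± 0.18, 1.2e-12, 6 of 6), and so was Adra1a (−0.88 ± 0.14, 5.5e-06, 6 of 6). These 3 of 7 members tested stood beside 31.1% of all genes (17.6% higher on the lateral and 13.5% on the medial side). For Adrb1 the interval was −0.46 to 0.65, and Hrh1, Hrh3 and Adra2a did not pass, Adra2a from 2 UMIs on the medial side. With nuclei thinned to 2000 UMIs, Adra1a and Hrh2 still passed (adjusted p = 0.041 and 0.014), and Adra1b was under the filter on low counts. Of 36 pathway genes tested, the lateral side was higher in 11 and the medial side in 7. Th, which makes the precursor of dopamine and noradrenaline, led the medial side, at 5.90 ± 4.86 against 0.132 ± 0.0242 CPM (log2 difference −5.27 ± 0.61, adjusted p = 4.9e-09 by edgeR). It had only 113 UMIs over all classes, and its SD on the medial side was near its mean. The lateral side was led in its G proteins by Gnai1, an inhibitory alpha subunit, at 155 ± 6.42 against 67.5 ± 16.2 CPM. The medial side was led in uptake by Slc29a4, a low-affinity monoamine transporter, at 7.25 ± 2.52 against 1.36 ± 0.226 CPM.

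Cholinergic neurons showed the same pair. Against GABAergic neurons, Adra1b (2.39 ± 0.34, adjusted p = 7.2e-09 by edgeR) and Hrh2 (1.76 ± 0.26, 2.2e-08) were higher, each in 6 of 6 samples and without overlap. Hrh1 also passed (1.21 ± 0.33, 0.0032, 5 of 6), but not without sample 1 (0.71, adjusted p = 0.24). These 3 of 7 compare with 17.7% of all genes (6.63% higher in cholinergic and 11.1% in GABAergic neurons). Adra1a did not pass (0.10 ± 0.19, 0.81), nor did Adrb1 (−1.19 ± 0.55, 0.13), at 3.91 ± 2.54 against 7.99 ± 0.6254 CPM from 7 UMIs. The GABAergic class holds the medial septum-like nuclei. None of the 3 calls was kept after thinning, when Adra1b and Hrh2 had 3 and 5 UMIs left in cholinergic nuclei.

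Among glia, astrocytes exceeded oligodendrocytes in all 4 members tested, where 73% of genes passed, 37.7% higher in astrocytes and 35.3% in oligodendrocytes: Adra1a (3.86 ± 0.09, adjusted p = 5.9e-25 by edgeR), Hrh1 (4.30 ± 0.10, 3.2e-24), Adrb1 (3.48 ± 0.17, 4.7e-17) and Adra2a (1.13 ± 0.23, 8.8e-05), each in 6 of 6 samples. Levels in astrocytes alone could bring members past the filter, so the common direction of the 4 is only a description. Of the 27 pathway genes tested 19 were higher in astrocytes and 5 in oligodendrocytes. The receptor kinase Grk3, which marks active receptors for arrestin, was at 482 ± 17.8 against 16.6 ± 3.11 CPM. All 3 phospholipase C beta genes tested, the effectors of Gq, were higher in astrocytes, led by Plcb1 at 2625 ± 85.0 against 326 ± 41.8 CPM.

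Oligodendrocyte precursors exceeded oligodendrocytes in all 3 members tested, where 69.4% of genes passed (34.4% higher in precursors and 34.9% in oligodendrocytes). Adra1a differed by 3.33 ± 0.11 (adjusted p = 1.3e-19 by edgeR), Hrh1 by 3.50 ± 0.14 (7.2e-18) and Adra1b by 1.012 ± 0.29 (0.0031), each in 6 of 6 samples. Levels in precursors alone could bring members past the filter, so the common direction of the 3 is only a description. Adrb1 was under the filter on low counts, at 2.16 ± 0.778 CPM in precursors and 1.97 ± 0.789 CPM in oligodendrocytes. Of 28 pathway genes tested 17 were higher in precursors and 5 in oligodendrocytes, and the uptake transporter Slc22a3 was at 11.8 ± 2.16 against 0.531 ± 0.456 CPM.

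Microglia and astrocytes differed in all 4 members tested, beside 62.7% of all genes (29.3% higher in microglia and 33.3% in astrocytes). Microglia were lower in Adra1a (−4.00 ± 0.18, adjusted p = 1.2e-35 by edgeR) and Hrh1 (−4.36 ± 0.28, 1.2e-25) and higher in Hrh2 (4.23 ± 0.31, 5.8e-22), each in 6 of 6 samples. Adrb1 was higher in microglia in 6 of 6 samples (0.46 ± 0.17, 0.016), but this call was lost in 5 of 16 alternatives, among them DESeq2 (adjusted p = 0.065) and leaving out sample 5 or 6 (0.064 and 0.057). Taken from log2(CPM + 1), without edgeR's scaling of the totals, the mean difference was larger, at 0.77 ± 0.29 (SD, n = 6). Among the Gq effectors, Plcb2 was higher in microglia at 36.9 ± 3.27 against 0.30 ± 0.282 CPM, with 12 of 29 pathway genes tested higher and 12 lower. Endothelial cells were lower than astrocytes in all 3 members tested, where 51.9% of genes passed, 23.6% higher in endothelial cells and 28.3% in astrocytes: Adra1a (−3.69 ± 0.22, 4.3e-64), Hrh1 (−4.98 ± 0.37, 2.3e-40) and Adrb1 (−1.82 ± 0.35, 1e-06), each in 6 of 6 samples. Here too levels in astrocytes alone could bring members past the filter. Among pathway genes 8 of 27 tested were higher in endothelial cells, led by Ddc at 209 ± 34.2 against 1.66 ± 0.505 CPM and, in breakdown, by Maoa, monoamine oxidase A, at 318 ± 30.6 against 60.1 ± 4.07 CPM.

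Within lateral septum-like neurons the receptors were not even. Nuclei were divided by small sets of genes, and 2 groups were compared after their levels had been seen, so the tests below only describe these data. A nucleus entered a group with at least 3 UMIs of its set, from at least 2 genes of the set. It also needed at least 2 times the UMIs of any other set. The 254 nuclei with Pax6 and Eya4, 37 to 50 per sample, had Adra1a at a lowest value of 115, a median of 183 and a highest of 235 CPM. The other lateral septum-like nuclei had 26.1, 32.6 and 35.0 CPM. The groups did not overlap and differed by 2.61 ± 0.10 (log2, adjusted p = 8.5e-44 by edgeR, 6 of 6 samples). The mean of the Pax6 and Eya4 nuclei, 182 ± 41.4 CPM, stood beside 132 ± 8.83 CPM in astrocytes, with overlapping ranges and no test. Hrh1 was at 26.8 ± 6.68 against 6.32 ± 0.423 CPM (2.18 ± 0.22, 3.3e-15) and Hrh2 at 23.7 ± 9.22 against 8.02 ± 0.769 CPM (1.67 ± 0.22, 3.9e-10). Adrb1 went the other way, with 5 UMIs in these nuclei, at 1.196 ± 1.66 against 9.03 ± 0.865 CPM (−2.71 ± 0.50, 6.7e-06). All 4 calls were in 6 of 6 samples, beside 20.7% of all genes (8.38% higher in these nuclei and 12.3% in the others), and that of Adrb1 was lost after thinning (adjusted p = 0.26). Of 35 pathway genes 4 were higher in these nuclei and 9 lower. Rgs4, an inhibitor of Gi and Gq signalling, was at 5.66 ± 2.25 against 0.74 ± 0.188 CPM.

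The 1082 lateral septum-like nuclei with Col25a1 and Tll1 showed the reverse for 2 of these genes. Adra1a had a lowest level of 7.74, a median of 17.1 and a highest of 22.7 CPM, against 31.5, 38.8 and 41.4 CPM in all other lateral septum-like nuclei, so all 6 samples were lower (−1.09 ± 0.10, adjusted p = 1.7e-07 by edgeR). Those other nuclei include the Pax6 and Eya4 nuclei, at a mean of 182 CPM. They can also hold nuclei with UMIs of Col25a1 or Tll1 that fell short of the rule. The part of either in the difference was not tested. In the Col25a1 and Tll1 nuclei Adrb1 was higher in all 6 samples, at 12.5 ± 1.56 against 8.29 ± 0.847 CPM (0.64 ± 0.10, 0.00011), a call lost after thinning (0.30). Hrh2 also passed (0.36 ± 0.11, 0.035, 5 of 6 samples), though not in 7 of 16 alternatives, such as without sample 2, 3, 4 or 6. The share of all genes called was 14.6% (8.13% higher in these nuclei and 6.43% in the rest). Nuclei with Ano2 and Ntf3, and with Calcr, Esr1 and Prlr, had Adra1a at 19.6 ± 6.76 and 20.5 ± 7.45 CPM, without a test.

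Astrocytes were also divided. The 1056 nuclei with Slc6a11, Itih3 and Lrig1 had Hrh1 at a lowest level of 83.1, a median of 88.6 and a highest of 115 CPM, and the 3796 nuclei with Gldc, Grin2c and Rorb at 46.6, 56.2 and 60.9 CPM. The groups did not overlap, and the difference was 0.69 ± 0.10 (adjusted p = 3.3e-08 by edgeR, 6 of 6 samples), in a comparison chosen after the levels were seen in which 18.2% of genes passed (8.89% higher in the first group and 9.35% in the second). Adra1a (−0.18 ± 0.08, 0.11) and Adrb1 (−0.11 ± 0.17, 0.76) did not pass. The 95% intervals of their differences were −0.33 to −0.03 and −0.44 to 0.22. All intervals here were built from an SE derived from the test statistic and, unlike the p-values, were not adjusted over genes.

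**Figure D4:**
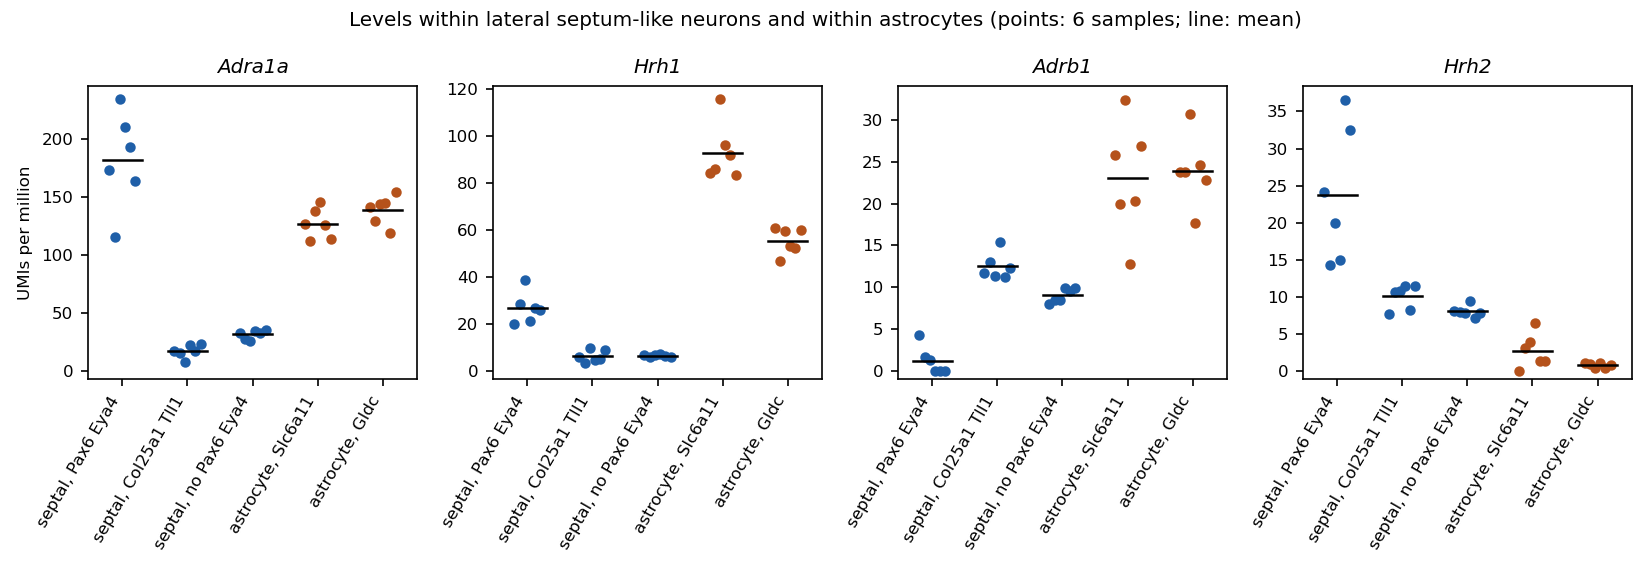
Levels of 4 receptor genes (y axis, CPM) in groups of lateral septum-like neurons (blue) and of astrocytes (orange), with 1 point per sample and a line at the mean. The group "septal, no Pax6 Eya4" is all nuclei short of the Pax6 and Eya4 rule and holds the Col25a1 and Tll1 nuclei too. Adra1a in the Pax6 and Eya4 nuclei lies between 115 and 235, and Hrh1 separates the 2 astrocyte groups.

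The genes whose pattern was most like that of a receptor were taken by Pearson's r of log2(CPM + 1) over the 12 class means, among 16305 genes that reached 5 CPM in at least 1 class. These are descriptions, since all classes come from the same libraries. Adra1b was most like Tmem178 (r = 0.935), Hcrtr1, which encodes an orexin receptor (0.915), and Cnbd1 (0.903). Hrh2 was most like Rassf5 (0.952). For Adra1a the first was Hhipl1 (0.906), for Adrb1 Cmya5 (0.894), for Hrh3 Otof (0.907) and for Adra2a Oat (0.910).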

How the data were processed

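RNA of single nuclei from 6 libraries of mouse septum was analysed. The authors deposited 1 matrix of UMI counts per library, unnormalised per the file headers. The submitters' processing notes name Cell Ranger 3.1.0 and STAR, while a header in the matrices names Cell Ranger 5.0.0. Neither the genome build nor the counting of introns is given in the sources used here. Barcodes with at least 500 genes were kept and given a class by marker UMIs. Predicted doublets, 5.76 to 8.86% of barcodes, were kept, and leaving them out was an alternative. Counts were summed per sample and class. Classes were compared with edgeR 4.0.16 (R 4.3.3; TMM, filterByExpr, quasi-likelihood test, sample as block, Benjamini-Hochberg over all genes, threshold 0.05). The blocks are real pairs, since both classes come from the same library. Alternatives were RLE size factors, DESeq2 1.42.0, no filter, no block, other gates and barcode filters, thinning to 2000 UMIs and leaving out each sample. Pathway genes were named where they had the largest difference of their list and passed. The script was tested on simulated data. For GABAergic against glutamatergic neurons it recovered 76% of 2-fold and 99% of 4-fold changes, and 8.85% of its calls were false. For lateral against medial septum-like neurons these values were 68%, 96% and 5.75%. Both false shares were above the threshold of 0.05. Far fewer genes were changed in the simulated data than were called in the real fits. These shares are therefore not the error rates of the calls reported here. The members, lists and comparisons were chosen with earlier results of these data known. The gene most like Hrh1 in pattern is not reported here.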

Additional observations from a re-analysis of the deposited data

Results flagged for a closer look

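Among 52 levels of a receptor gene in a class with at least 60 UMIs, 5 had 1 sample far from the other 5 by Dixon's criterion, which chance meets in about 1 of 20 groups. Adra1a in medial septum-like neurons was 117 CPM in sample 1, against 42.8 to 64.5 CPM in the others. Adra1a in cholinergic neurons was 146 CPM in sample 6, against 26.0 to 48.1 CPM. Hrh1 in glutamatergic neurons was 18.5 CPM in sample 1, against 25.1 to 28.5 CPM. Hrh1 in astrocytes was 52.0 CPM in sample 2, against 65.1 to 72.2 CPM. Adra2a in astrocytes was 6.82 CPM in sample 3, against 3.28 to 4.33 CPM. The classes and samples differ from one value to the next, and the cause was not tested.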

How the results depend on the processing

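Of 42 receptor calls in 66 tests, 30 were kept under every alternative that gave a value. The 12 others were Adra2a, Hrh3 and Adrb1 in GABAergic against glutamatergic neurons, Adra1a and Hrh3 in lateral septum-like against striatal neurons, Adra1b, Hrh1 and Hrh2 in cholinergic neurons, Adrb1 in microglia, Adrb1 in the Pax6 and Eya4 nuclei, and Adrb1 and Hrh2 in the Col25a1 and Tll1 nuclei. Of 1035 refitted differences, 972 kept their direction and their side of the threshold, 29 lost and 11 gained a call, and 23 changed sign. Of these 23 only Hrh1 in cholinergic neurons had been called, at -1.13 after thinning. Without the replicate block, which is the library, Hrh2 in GABAergic against glutamatergic neurons passed (0.58, adjusted p = 0.048), and no other receptor call changed. The same difference passed without the filter (0.63, 0.033), with the looser gate (0.71, 0.016) and without sample 2 (0.90, 0.008). The other gained calls were those of Adra2a and Adrb1 in lateral septum-like against striatal neurons given in the report, Adra1b in the Col25a1 and Tll1 nuclei with the looser gate (-0.97, 0.019), Adra1a between the astrocyte groups without the filter (-0.23, 0.039), and Adra2a against medial septum-like neurons without sample 2 (0.047), which leaves the medial side at 0 UMIs, so no size is given.

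The other sign changes, none of a call, were these log2 differences, with the range over leaving out each sample in turn. In GABAergic against glutamatergic neurons Adra1b was 0.18 with the stricter gate and -0.56 to 0.22 over samples left out. In lateral septum-like against striatal neurons Adra1b was -0.15 to 0.39 over samples left out, Hrh1 0.19 with the stricter gate, and Hrh2 0.021 without the filter, 0.031 with the looser gate and -0.11 to 0.058 over samples left out. Against medial septum-like neurons Hrh1 was -0.62 to 0.12 and Adrb1 -0.077 to 0.25 over samples left out, sample 4 giving the change of sign in both. In cholinergic neurons Adra1a was -0.11 with the stricter gate, -0.29 after thinning and -0.31 to 0.27 over samples left out, below 0 without sample 6. In the Pax6 and Eya4 nuclei Adra1b was -0.0047 to 0.60, Adra2a -0.73 to 0.28 and Hrh3 -0.31 to 0.40 over samples left out, and Hrh3 was -0.094 and -0.27 with the stricter and looser gates. Adrb1 between the astrocyte groups was 0.084 after thinning.

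Thinning, which leaves fewer genes to test, lowered the number of genes called from 5238 to 2591 between GABAergic and glutamatergic neurons, from 6254 to 2774 between lateral septum-like and striatal neurons, from 4902 to 1491 against medial septum-like neurons (2706 with the stricter gate), from 2901 to 1234 for cholinergic neurons, from 3228 to 1211 for the Pax6 and Eya4 nuclei and from 2317 to 839 for the Col25a1 and Tll1 nuclei. Leaving out each sample gave 14309 to 14585, 4479 to 5345, 5581 to 5978, 4156 to 4518, 2492 to 2664, 9667 to 10071, 8288 to 8568, 7466 to 7916 and 6067 to 6303 called genes in the main comparisons, in the order of the report, and 2813 to 3008, 1830 to 2091 and 1742 to 1804 in the added ones. Few nuclei limit the medial septum-like, cholinergic and microglial values.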

Other observations

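Fibroblasts were too few to enter a comparison: 50 nuclei in all, and only 2 samples with at least 10. In those 2 samples Adra1a was at 161 CPM (sample 1) and 409 CPM (sample 6), from 7 and 24 UMIs. The summed level of the fibroblast markers there was 2272 to 2298 CPM, beside 1997 to 2060 CPM for the astrocyte markers, of which 3 of 6 had UMIs, and the part of these in the Adra1a level was not tested.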
